A study of Mus musculus with 10 samples.

Results

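The enzymes that turn cholesterol into conjugated bile acids were followed through 10 liver libraries of mice lacking, or not lacking, Arg2 in hepatocytes. The set was fixed by name as 10 genes, Cyp7a1, Cyp8b1, Cyp27a1, Cyp7b1, Hsd3b7, Akr1d1, Amacr, Acox2, Slc27a5 and Baat, and all 10 were found once each by symbol among the 55487 genes of the count table. Of these, 9 passed the filter on low counts and were tested, and Hsd3b7 had no count in any library.

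The study compared livers of Arg2fl/fl mice (Flox, 5 libraries) with livers of littermates carrying the hepatocyte deletion of Arg2 (LKO, 5 libraries). Arg2 encodes the mitochondrial arginase. All mice were of the strain given as C57B/6J, were co-housed, ate normal chow and were 22 months old. The driver of the deletion is not given in the sources used here, and no label says that each library is a separate mouse, so p-values measure only the spread between these libraries. The Flox libraries carry the numbers of their titles, whereas the LKO libraries are called by column numbers 1 to 5 that have no link to a title.

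Libraries held 43331354 to 54951415 gene counts, and hepatocyte transcripts were abundant in each of them. The summed level of 12 general hepatocyte genes was 62200 to 134000 CPM (counts relative to the TMM-scaled library total) in Flox and 141000 to 170000 CPM in LKO. The gap lay in Alb, the serum albumin (35300 to 93500 CPM in Flox and 99600 to 123000 CPM in LKO), and the sums of the other 11 genes overlapped (26900 to 40600 and 37400 to 47200 CPM). Arg2 had 9 counts over the 5 Flox libraries and 10 over the 5 LKO libraries, too few to check the deletion. Flox libraries 2 and 3 stood apart: the summed level of 15 acute phase genes, the secreted response of hepatocytes to inflammation, was 107000 and 142000 CPM there, 58900 CPM in Flox 4, and 21400 to 44000 CPM in the other 7 libraries. Saa2, a serum amyloid with a close copy in Saa1, was at 7476 and 17180 CPM in Flox 2 and 3, and Apcs, a pentraxin, at 334 and 475 CPM. In Flox 4 Saa2 was at 1874 CPM and Apcs at 199 CPM. The other 7 libraries had 12.1 to 248 CPM of Saa2 and 43.9 to 87.9 CPM of Apcs. Livers also differed in the clock. Dbp, an output factor of the circadian clock, was at 0.798 to 1.97 CPM in Flox 1, 2 and 3, at 3.13 CPM in LKO 1, and at 34.5 to 111 CPM in the other 6 libraries. Log2 fold changes whose direction turned without Flox 2 and 3 are also given without them. Other values may lean on these libraries too.

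Bile acids are made in hepatocytes by a classical pathway, which Cyp7a1 starts by hydroxylating the cholesterol ring, and an alternative pathway, which Cyp27a1 starts on the side chain and Cyp7b1 continues on the ring. Hsd3b7 and Akr1d1 then rework the ring, Cyp8b1 adds the hydroxyl group that distinguishes cholic acid, Amacr and Acox2 act on the shortening of the side chain in peroxisomes, and Slc27a5 and Baat join the product to taurine or glycine. Bile acids returning to the liver repress the pathway through the receptor Nr1h4 (FXR), its target Nr0b2 (SHP) and the gut hormone receptor Fgfr4 with its partner Klb, and Cyp7a1 is known for a daily rhythm and for repression by inflammatory cytokines.

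The RefSeq promoter table (GRCm38.p6) held 5 of the 10 genes, Cyp8b1, Akr1d1, Cyp27a1, Acox2 and Hsd3b7. The 250 bases before the start site are shown for Cyp8b1 (chr9:121916306-121916555, minus strand) and Akr1d1 (chr6:37529923-37530172, plus strand). Both were low in Flox 2 and 3 (values below), as was Acox2, whose 2 windows are not shown. Capitals mark matches to the motifs searched.
Cyp8b1: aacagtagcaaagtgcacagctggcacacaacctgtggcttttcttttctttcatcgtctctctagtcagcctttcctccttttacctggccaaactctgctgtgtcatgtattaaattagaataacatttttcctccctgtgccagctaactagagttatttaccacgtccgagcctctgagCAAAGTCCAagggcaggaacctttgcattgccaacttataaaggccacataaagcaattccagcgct
Akr1d1: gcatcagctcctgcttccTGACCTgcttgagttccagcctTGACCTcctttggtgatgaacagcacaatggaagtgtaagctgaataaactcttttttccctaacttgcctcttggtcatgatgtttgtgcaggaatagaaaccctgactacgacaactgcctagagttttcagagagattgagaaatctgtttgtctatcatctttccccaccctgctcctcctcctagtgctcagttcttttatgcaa
The Cyp8b1 window held CAAAGTCCA, a core sequence bound by Hnf4a, starting 67 bases before the start site, which 0.384% of 32851 promoter windows of the same length held on either strand. The Akr1d1 window held the nuclear receptor hexamer AGGTCA in 2 places on the opposite strand, starting 232 and 210 bases before the start site, and 14.0% of windows held it. On either strand, neither window held CAAGGTCA (LRH-1; 1.33% of windows; it contains the hexamer), TGTTTAC (forkhead; 3.17%), TTATGTAA (D-box; 0.819%), CACGTG (E-box; 6.02%) or TTCNNNGAA (STAT; 7.02%). The Cyp27a1 window and the 2 Acox2 windows held none of the 7 motifs, and the Hsd3b7 window held 1 STAT match. Acox2 had its lowest levels in Flox 2 and 3 (165 and 195 CPM), and no link between a motif and a level was tested.

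Compared per length, as RPKM (CPM per kilobase of annotated exon), Slc27a5, Cyp27a1 and Baat were far above Cyp7a1. The median RPKM over the 10 libraries was 344 for Slc27a5, 173 for Cyp27a1, 109 for Baat, 104.5 for Cyp8b1, 64.2 for Acox2, 60.2 for Cyp7b1, 46.7 for Amacr, 38.7 for Akr1d1 and 13.8 for Cyp7a1. Slc27a5 (262 to 375 RPKM) and Cyp27a1 (143 to 225 RPKM) each lay above the next gene of this order in every library, although Cyp8b1 exceeded Cyp27a1 in Flox 5 and LKO 1. The ranges of all further neighbours overlapped, although Akr1d1 also lay above Cyp7a1 in every library. Slc27a5 made up 28.8% to 40.9% of the summed RPKM of the 9 enzymes with counts, and Cyp7a1 made up 0.143% to 2.10%. Hsd3b7, for which no level could be read, adds nothing to this sum, so shares of the full set may be smaller.

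None of the enzymes differed between LKO and Flox livers beyond the test's threshold. By edgeR's quasi-likelihood test 0 of the 9 tested genes had an adjusted p under 0.05, as did 0% of the 15894 genes tested, and 0 of 9 had an unadjusted p under 0.05, against 7.51% of all genes. DESeq2 and limma-voom also called 0 of the 9 after adjustment, with 1 gene, Akr1d1, at an unadjusted p of 0.0493 by DESeq2 and none by limma-voom. Over all genes with an adjusted p, 8.5% were under that unadjusted threshold by DESeq2 and 6.6% by limma-voom. The libraries of both groups overlapped for each of the 9 genes, whereas they did not overlap for 0.906% of all genes. Values were higher in LKO for 7 genes and lower for 2, with a median log2 fold change of 0.10, and the median over all genes tested was -0.008. Without Flox 2 and 3 the split was 5 higher and 4 lower (median 0.03), and with library totals in place of TMM 6 higher and 3 lower, Slc27a5 being the gene that turned. The smallest adjusted p of any enzyme was 0.652, and over the alternatives tried it was 0.404. On simulated counts with known changes the same fit recovered 0 of 50 changes of 1.5-fold and 35 of 50 of 2-fold. The changed genes were drawn at random from tested genes above a low mean count, so these rates are not those of the enzymes. Each gene was simulated independently, without differences shared between genes such as those of Flox 2 and 3. The changed genes also included 50 at 3-fold and 50 at 4-fold. The rates therefore do not give what the fit could call in these libraries. For the most variable enzymes, Cyp7a1 and Cyp8b1, the 95% intervals of the fold ran from 0.423 to 3.81 and from 0.480 to 3.29.

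**Figure D1:**
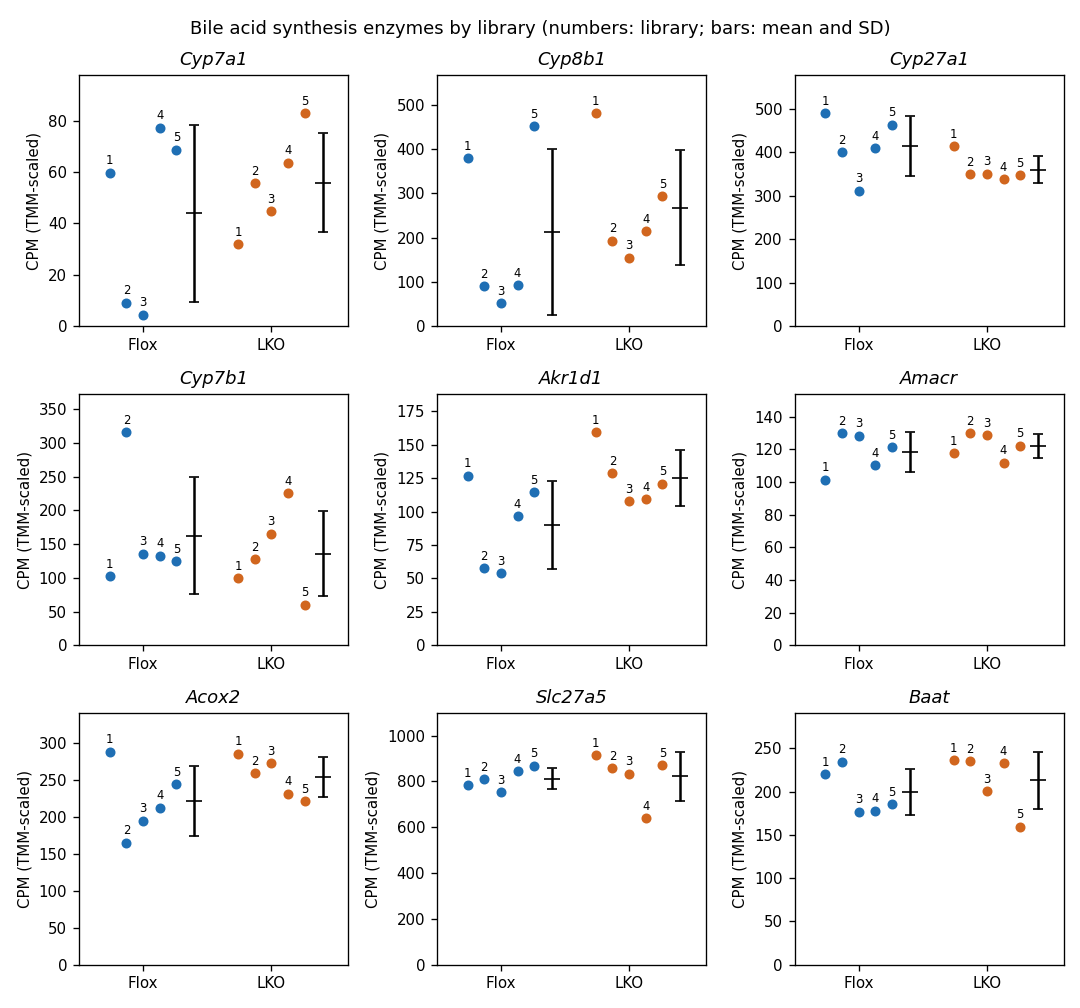
CPM of the 9 enzymes with counts in each library, on linear axes that start at 0; points are libraries, with their numbers, and bars are the mean ± SD of 5 libraries. Cyp7a1 in Flox is split between 4.5 and 9.09 CPM in libraries 3 and 2 and 59.8 to 77.3 CPM in the others, while Amacr stays between 101 and 130 CPM.

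Cyp7a1 (ENSMUSG00000028240, chromosome 4, 6265612 to 6275633, GRCm38), the rate-limiting enzyme of the classical pathway, was at 59.8, 9.09, 4.5, 77.3 and 68.8 CPM in Flox 1 to 5 and at 31.8, 55.8, 44.9, 63.7 and 83.0 CPM in LKO 1 to 5. Flox 2 and 3 were below all other libraries, and the remaining 3 Flox libraries lay within the upper part of the LKO range. The highest Flox library was 17.2-fold above the lowest, and the highest LKO library 2.61-fold above the lowest. The mean was 43.9 ± 34.5 CPM in Flox livers and 55.8 ± 19.3 CPM in LKO livers (SD over 5 libraries each), a fold of 1.27 (95% interval 0.423 to 3.81; log2 fold change 0.35 ± 0.70 SE; adjusted p = 0.898). The direction turned without Flox 2 and 3 (log2 fold change -0.30 ± 0.27 SE; adjusted p = 0.999). With 1 library left out it ranged from 0.06 without Flox 3 and 0.08 without Flox 2 to 0.57 without Flox 5 and 0.65 without Flox 4, it was 0.16 without LKO 5, and with limma-voom it was 0.58. The SD of its log2 CPM over the 10 libraries, 1.42, exceeded that of 98.8% of the genes tested.

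Cyp8b1 (ENSMUSG00000050445, chromosome 9, 121914356 to 121916305), the hydroxylase of the cholic acid branch, was at 379, 89.6, 52.3, 92.0 and 453 CPM in Flox 1 to 5 and at 481, 193, 155, 215 and 294 CPM in LKO 1 to 5. Flox 2, 3 and 4 were the lowest libraries, and Flox 1, Flox 5 and LKO 1 the highest. The mean was 213 ± 188 CPM in Flox livers and 268 ± 130.0 CPM in LKO livers, a fold of 1.26 (95% interval 0.480 to 3.29; log2 fold change 0.33 ± 0.62 SE; adjusted p = 0.892). Its direction also turned without Flox 2 and 3 (-0.20 ± 0.56 SE; adjusted p = 0.999), and with 1 library left out the value ranged from 0.01 without LKO 1 and 0.09 without Flox 3 to 0.65 without Flox 1 and 0.82 without Flox 5. It was 0.14 without Flox 2 and, likewise, without Flox 4, and 0.50 with limma-voom.

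The ratio of Cyp8b1 to Cyp7a1, both as RPKM, ranged widely between livers. It was 13.6, 21.1, 24.9, 2.55 and 14.1 in Flox 1 to 5, and 32.4, 7.41, 7.37, 7.21 and 7.59 in LKO 1 to 5. LKO 2 to 5 were thus close to each other, while LKO 1 had the highest ratio of all and Flox 4 the lowest. Nr0b2, the repressor induced by FXR, was highest in LKO 1 (65.6 CPM) and lowest in Flox 4 (13.7 CPM), and its part in the ratio was not tested. The ratio of Cyp7b1 to Cyp7a1 was 66.9 and 58.2 in Flox 2 and 3 and 1.4 to 7.11 in the other 8 libraries. A ratio over chosen genes was given no test.

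**Figure D2:**
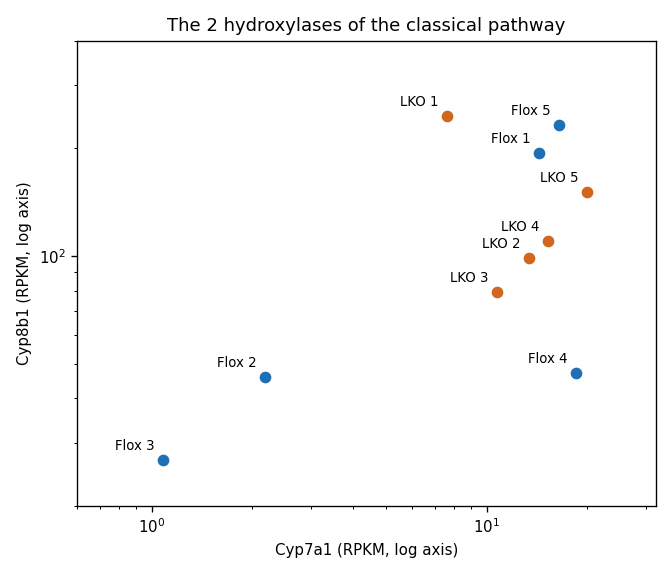
RPKM of Cyp7a1 (x) and Cyp8b1 (y) in each library, both on log axes; blue points are Flox and orange points LKO. Flox 2 and 3 sit at the lower left with 2.18 and 1.08 RPKM of Cyp7a1, and Flox 4 combines 18.5 RPKM of Cyp7a1 with 47.2 RPKM of Cyp8b1.

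Of the alternative pathway, Cyp27a1 (ENSMUSG00000026170, chromosome 1, 74713574 to 74737892), the mitochondrial sterol hydroxylase, was at 490, 400, 311, 409 and 463 CPM in Flox 1 to 5 and at 415, 350, 351, 338 and 347 CPM in LKO 1 to 5. LKO 2 to 5 were below every Flox library except Flox 3. The mean was 414 ± 68.9 CPM in Flox livers and 360.0 ± 30.9 CPM in LKO livers, a fold of 0.869 (95% interval 0.712 to 1.06; log2 fold change -0.20 ± 0.13 SE; adjusted p = 0.676). Without Flox 2 and 3 the log2 fold change was -0.33 ± 0.12 (SE), with an unadjusted p of 0.0147, where 3.12% of all genes were under 0.05, and an adjusted p of 0.999. The unadjusted p without Flox 3 alone was 0.0294, where 3.55% of all genes were under 0.05 (adjusted p = 0.993). Its electron donor Fdx1 was at 77.1 ± 17.1 CPM in Flox livers and 93.5 ± 14.5 CPM in LKO livers (adjusted p = 0.658).

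Cyp7b1 (ENSMUSG00000039519, chromosome 3, 18071950 to 18243338), which hydroxylates the ring of oxysterols and is male-biased in mouse liver, was at 103, 316, 136, 133 and 125 CPM in Flox 1 to 5 and at 99.3, 128, 166, 226 and 60.4 CPM in LKO 1 to 5. Flox 2 was the highest and LKO 5 the lowest library. The mean was 163 ± 86.6 CPM in Flox livers and 136 ± 63.3 CPM in LKO livers, a fold of 0.836 (95% interval 0.457 to 1.53; log2 fold change -0.26 ± 0.39 SE; adjusted p = 0.856). The direction turned without Flox 2 (0.13) and without Flox 2 and 3 (0.17 ± 0.38 SE). Unlike Cyp7a1 and Cyp8b1, it was not low in Flox 2 and 3.

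Akr1d1 (ENSMUSG00000038641, chromosome 6, 37530173 to 37568815), the reductase that gives bile acids their bent ring, had the smallest p of the enzymes. It was at 127, 57.6, 53.7, 96.5 and 114 CPM in Flox 1 to 5 and at 159, 129, 108, 109 and 121 CPM in LKO 1 to 5. Only Flox 1 and 5 reached into the LKO range. The mean was 89.9 ± 33.1 CPM in Flox livers and 125 ± 20.9 CPM in LKO livers, a fold of 1.39 (95% interval 0.973 to 2.0; log2 fold change 0.48 ± 0.24 SE; unadjusted p = 0.0675, adjusted p = 0.652). The log2 fold change without Flox 2 and 3 was 0.15 ± 0.15 (SE; adjusted p = 0.999). The unadjusted p was 0.0197 without Flox 1, where 10.4% of all genes were under 0.05, and 0.0392 without Flox 5, where 11.7% were (adjusted p = 0.451 and 0.404). Hsd3b7 (ENSMUSG00000042289, chromosome 7, 127800604 to 127803802), the oxidoreductase that acts on the hydroxylated sterols of both pathways, had 0 counts in all 10 libraries, which allows up to 3 counts or 0.0523 to 0.0704 CPM in each, for counting error only. In the GENCODE M21 annotation of GRCm38, 99.2% of its 2769 exon bases are also exon bases of other genes. The same-strand gene Gm49388 covers 62.0% of them and also had 0 counts, and 9430064I24Rik on the opposite strand had 0 to 12 counts. The other 9 enzymes share no exon base with another gene. How reads in shared exons were assigned is not given in the sources used here, so no level of the transcript can be read from the 0.

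Of the peroxisomal enzymes, Acox2 (ENSMUSG00000021751, chromosome 14, 8225511 to 8259353), the oxidase of the bile acid side chain, was at 288, 165, 195, 212 and 245 CPM in Flox 1 to 5 and at 285, 259, 273, 231 and 221 CPM in LKO 1 to 5. Flox 2, 3 and 4 were below every LKO library. The mean was 221 ± 47.4 CPM in Flox livers and 254 ± 27.2 CPM in LKO livers, a fold of 1.15 (95% interval 0.920 to 1.43; adjusted p = 0.709). Its log2 fold change was 0.20, against 0.03 ± 0.13 (SE) without Flox 2 and 3 and 0.31 ± 0.14 (SE; unadjusted p = 0.0414, adjusted p = 0.470) without Flox 1. Amacr (ENSMUSG00000022244, chromosome 15, 10981756 to 10996626), the racemase that precedes it, was the steadiest of the enzymes, at 101 to 130 CPM in Flox (median 121) and 112 to 130 CPM in LKO (median 122). Its fold was 1.03 (95% interval 0.895 to 1.19; adjusted p = 0.902), and its log2 fold change was -0.01 without Flox 1. Only 6.01% of the genes tested had a smaller SD of log2 CPM.

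The conjugation enzymes varied little. Slc27a5 (ENSMUSG00000030382, chromosome 7, 12988346 to 12998192), which activates bile acids with coenzyme A, was at 753 to 869 CPM in Flox (median 810) and at 638 to 915 CPM in LKO (median 857), where LKO 4 was the lowest. Its fold was 1.01 (95% interval 0.841 to 1.22; adjusted p = 0.966), and the log2 fold change was -0.02 without LKO 1. Baat (ENSMUSG00000039653, chromosome 4, 49489422 to 49506557), which attaches the amino acid, was at 177 to 235 CPM in Flox (median 185) and at 160 to 236 CPM in LKO (median 233). Its fold was 1.07 (95% interval 0.871 to 1.31; adjusted p = 0.842). The intervals of Amacr, Slc27a5 and Baat leave room for changes smaller than those at their bounds.

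**Figure D3:**
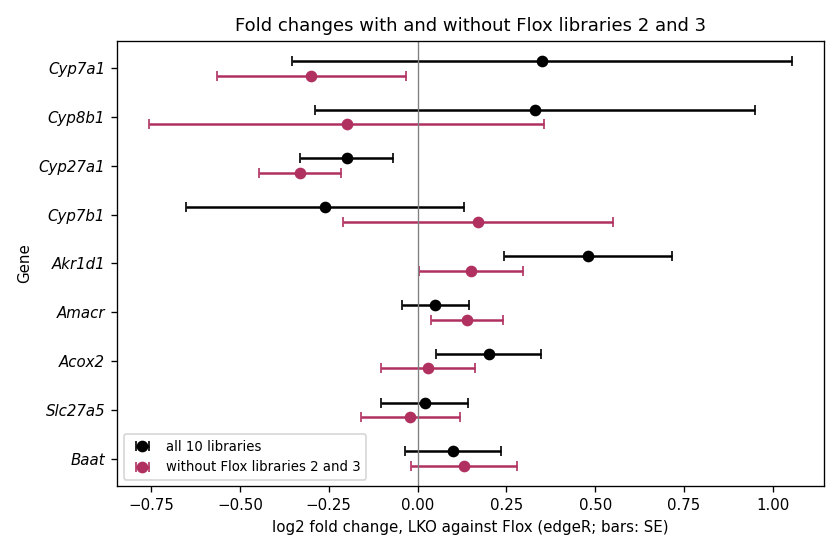
log2 fold change of LKO against Flox for the 9 tested enzymes, from edgeR, with bars of 1 SE; black points use all 10 libraries and red points leave out Flox 2 and 3. Without these libraries Cyp7a1 moves from 0.35 to -0.30, Cyp8b1 from 0.33 to -0.20 and Akr1d1 from 0.48 to 0.15.

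Low levels in Flox 2 and 3 were uneven across the enzymes. Flox 3 had the lowest value of 4 enzymes and was among the lowest 2 libraries for 7 of 9, and Flox 2 was among the lowest 2 for 4. LKO 1 had the highest value of 4 enzymes. Relative to the mean over libraries, log2 CPM in Flox 3 ranged from -3.05 for Cyp7a1 to 0.10 for Amacr. Flox 2 and 3 were also the libraries with the highest acute phase levels and had Dbp near its lowest. Dbp was low as well in Flox 1 (0.798 CPM) and LKO 1 (3.13 CPM). Flox 1 had the highest value of 2 enzymes and the lowest of 1, and LKO 1 the lowest of 0. Flox 4, next in acute phase level (58900 CPM), had Cyp7a1 at 77.3 CPM and Cyp8b1 at 92.0 CPM. The part of the acute phase or of the clock in the enzyme levels was not tested. In bulk liver fewer hepatocytes and less RNA per hepatocyte cannot be told apart.

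**Figure D4:**
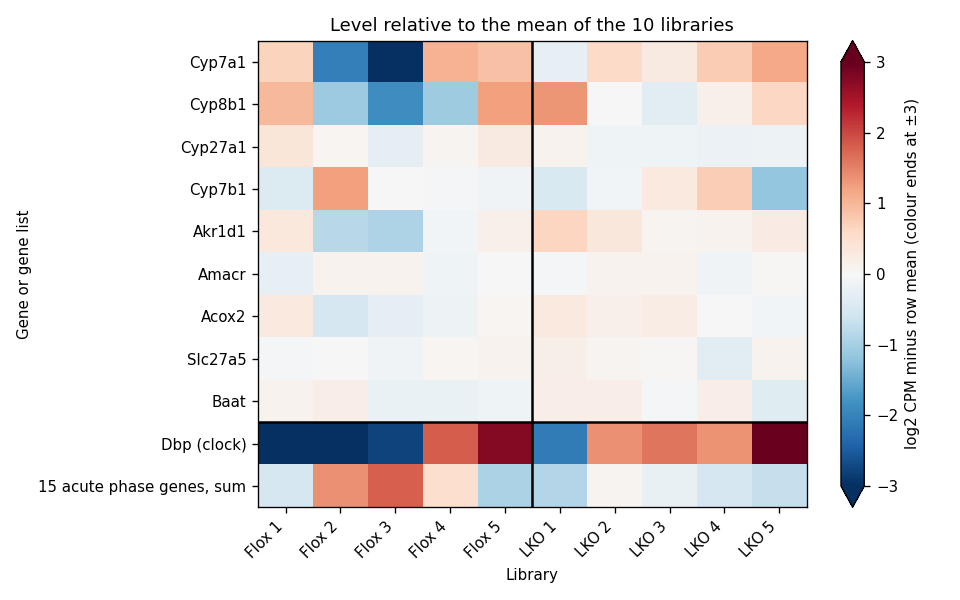
Level of each enzyme in each library as log2 CPM minus its mean over the 10 libraries (colour, ends at ±3), with Dbp and the log2 of the summed CPM of 15 acute phase genes below the line. Cyp7a1, Cyp8b1 and Akr1d1 are blue in Flox 2 and 3, where the acute phase row is red, and the rows of Amacr and Slc27a5 are pale throughout.

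Other genes of the pathway were described from fixed lists, by counts only. Of 15 further enzymes and carriers of bile acid synthesis 14 were tested, 11 with values higher in LKO and 3 lower (median log2 fold change 0.12), and 0 passed after adjustment. With library totals the split was 9 to 5, and without Flox 2 and 3 it was 10 to 4. At an unadjusted p under 0.05 there was 1, on the higher side, where 3.17% of all genes were. This was Akr1c14, a hydroxysteroid dehydrogenase, at 143 ± 39.9 CPM in Flox livers and 209 ± 36.5 CPM in LKO livers (log2 fold change 0.54 ± 0.19 SE; unadjusted p = 0.0151, adjusted p = 0.652). Leaving out Flox 2 and 3 gave 0.30 ± 0.16 (SE). Cyp2a12, which restores the ring hydroxyl of bile acids altered by gut bacteria, was at 593 ± 68.5 against 695 ± 13.2 CPM (adjusted p = 0.652). Its lowest levels were in Flox 2 and 3 (549 and 517 CPM). Cyp39a1, an oxysterol hydroxylase, was at 10.8 ± 2.07 against 14.1 ± 4.02 CPM (adjusted p = 0.652). Cyp2c70, which makes the muricholic acids of mice, was at 574 ± 206 against 464 ± 121 CPM (log2 fold change -0.31 ± 0.26 SE; adjusted p = 0.748).

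The 18 regulators of the pathway had 8 values higher in LKO and 10 lower (median log2 fold change -0.01), and 0 passed after adjustment. Without Flox 2 and 3 the split was 10 higher and 8 lower (0.02). At an unadjusted p under 0.05 there was 1, on the lower side, where 4.33% of all genes were. This was Nr1h2, a receptor of oxysterols, at 42.2 ± 6.56 CPM in Flox livers and 35.1 ± 3.68 CPM in LKO livers (log2 fold change -0.27 ± 0.12 SE; unadjusted p = 0.0411, adjusted p = 0.652). The feedback receptor Nr1h4 was at 91.9 ± 18.7 against 105.0 ± 25.0 CPM and its target Nr0b2 at 31.3 ± 12.01 against 32.2 ± 18.9 CPM (adjusted p = 0.766 and 0.980). The direction of Nr0b2 turned without LKO 1 (-0.39) and without Flox 4 (-0.15). Fgfr4, the receptor of the gut hormone, was at 50.5 ± 7.34 against 51.9 ± 10.3 CPM, and Klb, its partner, at 23.4 ± 7.63 against 28.3 ± 2.49 CPM (adjusted p = 0.941 and 0.696). Of the activators of Cyp7a1 and Cyp8b1, Nr5a2 was at 54.8 ± 4.85 against 52.3 ± 4.83 CPM and Hnf4a at 591 ± 109 against 546 ± 48.6 CPM (adjusted p = 0.842 and 0.819), and Hnf4a was highest in Flox 2 and 3 (686 and 727 CPM). Zfp36l1, an RNA-binding protein that destabilises transcripts, was at 135 ± 18.3 against 163 ± 22.5 CPM. Prox1, a corepressor, was at 94.0 ± 27.6 against 70.2 ± 11.5 CPM, with its highest levels in Flox 2 and 3 (128 and 110.5 CPM). Onecut1, a liver transcription factor, was at 12.1 ± 10.01 against 29.5 ± 22.0 CPM (adjusted p = 0.652, 0.652 and 0.656).

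The 13 transporters of bile acids and sterols had 12 values higher in LKO and 1 lower (median log2 fold change 0.29), with 0 past the adjusted or the unadjusted threshold. Without Flox 2 and 3 there were 10 higher and 3 lower (0.21). Abcg5, a subunit of the sterol exporter, was at 39.5 ± 12.5 against 56.5 ± 19.4 CPM (log2 fold change 0.52 ± 0.28 SE; adjusted p = 0.656), and 0.23 ± 0.26 (SE) without Flox 2 and 3. Abcc2, a canalicular export pump, was at 313 ± 97.2 against 384 ± 42.7 CPM (0.29 ± 0.19 SE), and 0.03 ± 0.14 (SE) without them. Slc51a, a subunit of the basolateral exporter, was near the detection limit at 0.177 ± 0.0562 against 0.271 ± 0.0679 CPM. Abcc4, another basolateral pump, was at 2.77 ± 1.66 against 4.91 ± 5.03 CPM, with an LKO mean that rests on library 5 (13.9 CPM) and a log2 fold change of -0.04 without it.

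**Figure D5:**
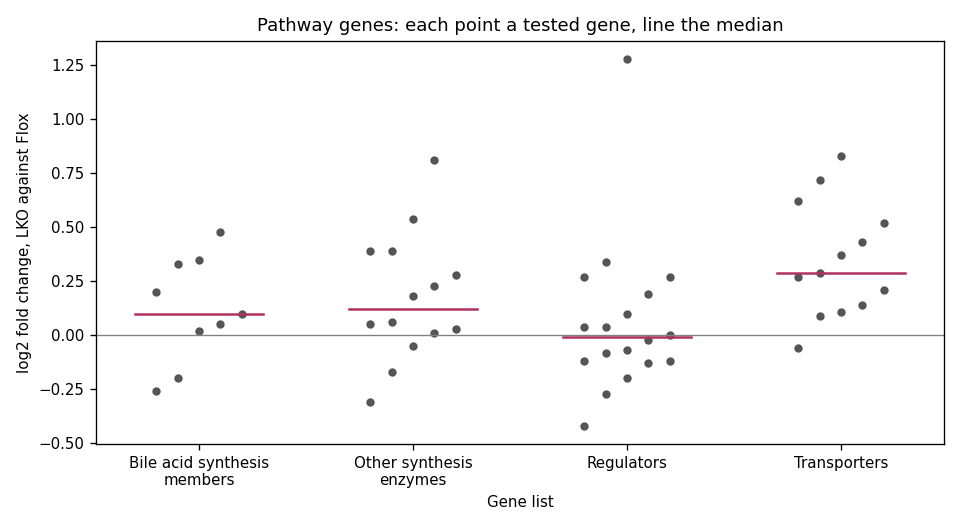
log2 fold change of LKO against Flox for each tested gene (points) of the enzyme set and of 3 lists of the pathway, with the median as a line. The medians are 0.10 for the enzymes, 0.12 for the other synthesis genes, -0.01 for the regulators and 0.29 for the transporters.

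The genes with the nearest profiles were sought among 7129 others at a mean of at least 10 CPM, by the root mean square (RMS) difference of centred log2 CPM over the 10 libraries. Nearest to Cyp7a1 were Ank3, an ankyrin (RMS 0.455), Upp2, a uridine phosphorylase (0.474), and Slc2a2, the hepatocyte glucose transporter (0.511), where the median over all genes was 1.36. Ank3 was at 7.79 and 3.47 CPM in Flox 2 and 3 and at 21.2 to 39.4 CPM in the other 8 libraries. Nearest to Cyp8b1 were Acaa1b, a peroxisomal thiolase (0.314), Me1, the malic enzyme that supplies NADPH for lipid synthesis (0.342), and Elovl5, a fatty acid elongase (0.356; median 1.04). Like Cyp8b1, Acaa1b was lowest in Flox 2, 3 and 4 (198 to 210 CPM) and was at 552 to 1316 CPM elsewhere. Nearest to Cyp7b1 were Serpina3k, a secreted protease inhibitor (0.283), and the complement genes C6 (0.310) and C8b (0.322; median 0.645). Serpina3k was highest in Flox 2 (9805 CPM) and lowest in LKO 5 (3835 CPM), the same libraries as for Cyp7b1. The libraries share their depth and scaling across these genes, and the order is a description of 10 libraries. The genes were chosen by their profile over these same libraries, so shared high and low libraries follow from the choice.

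Markers of other cells and of lobule zones moved with the groups in part. The 15 acute phase genes had 15 values lower in LKO (median log2 fold change -1.4), or -0.38 without Flox 2 and 3. The 15 clock genes had 10 values higher and 5 lower (0.43, and 0.04 without these libraries), with Nr1d1, a clock repressor, at 58.7 ± 41.3 against 89.6 ± 6.37 CPM. The lower ones included Nfil3, Npas2 and Arntl (log2 fold changes -0.94, -0.68 and -0.48). The median over this mixed list is therefore no measure of a level of the clock. Of the marker lists, values were lower in LKO for 9 of 9 Kupffer cell genes (summed 124 to 682 CPM in Flox and 80.9 to 543 in LKO), 7 of 7 tested T and NK cell genes (2.26 to 8.04 and 1.37 to 3.10 CPM), 3 of 4 tested neutrophil genes (0.694 to 17.2 and 1.53 to 18.7 CPM) and 3 of 5 tested B and plasma cell genes (4.17 to 25.2 and 6.69 to 16.8 CPM). They were higher for 6 of 6 erythroid genes (224 to 397 and 450 to 879 CPM), 10 of 12 hepatocyte genes, 4 of 7 sinusoidal endothelial genes (72.1 to 104 and 64.4 to 96.6 CPM), 4 of 7 stellate cell and fibroblast genes (98.2 to 226 and 145 to 203 CPM) and 3 of 5 tested cholangiocyte genes (30.0 to 41.7 and 27.7 to 40.2 CPM). With library totals 2 of the 7 endothelial and 2 of the 5 cholangiocyte genes were higher, and without Flox 2 and 3, 1 of the 7 endothelial, 1 of the 7 stellate cell, 0 of the 5 B and plasma cell and 5 of the 5 cholangiocyte genes. Periportal genes were higher for 9 of 10 (5750 to 11500 and 10300 to 13200 CPM) and pericentral genes lower for 7 of 10 (6810 to 11900 and 5710 to 8750 CPM), a list that holds Cyp7a1 and Cyp27a1. When Flox 2 and 3 were left out, the median log2 fold change of the hepatocyte genes went from 0.23 to 0.06 (9 higher and 3 lower), that of the periportal genes from 0.46 to 0.21 (9 and 1), and that of the pericentral genes from -0.36 to -0.32 (1 and 9). No marker was at 0 in all libraries, none passed the adjusted test, and their part in the enzyme values was not tested.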

How the data were processed

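RNA from liver was selected with oligo-dT, per the labels' protocols. The authors deposited 1 table of raw read counts by Ensembl gene, in which each library has its own column, per the file headers. Per the submitters' processing notes, the build was GRCm38 and the tools included STAR 2.5.1a and featureCounts 1.4.6-p5 of Subread. No strand setting, annotation release or rule for multi-mapping reads is given in the sources used here, so the P450 families may lose or share reads.

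Of 55774 lines, 287 repeats of an identifier with identical counts were dropped. No pair of libraries agreed within sampling noise (mean chi-square per gene at least 41.2 over all pairs). Genes were kept by filterByExpr (15894) and scaled by TMM (factors 0.963 to 1.04). The groups were compared with the quasi-likelihood F test of edgeR (4.0.16, R 4.3.3, robust, no covariate, two-sided), adjusted by Benjamini-Hochberg over all genes at a threshold of 0.05. Standard errors were derived from the F statistic. Log2 CPM used a prior count of 2. DESeq2 1.42.0 and limma-voom with quality weights (limma 3.58.1), other scalings, no filter and left-out libraries were alternatives. The fit was tested on simulated counts for 15894 genes. Positions and exon lengths are from GENCODE M21.

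The enzymes, lists and alternatives were chosen with earlier results of these data known. Named genes were the 10 enzymes, Arg2, up to 4 genes with the smallest p in each of 3 pathway lists, set feedback, clock and acute phase genes, and the 3 genes nearest in profile to each of Cyp7a1, Cyp8b1 and Cyp7b1.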

Additional observations from a re-analysis of the deposited data

Results flagged for a closer look

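Among the 82 groups checked (41 named genes in each of 2 genotypes, 5 libraries each), 6 held a library far from its 4 companions by Dixon's criterion at the 95% level, where chance flags about 1 group in 20. Of the enzymes, Cyp7b1 in Flox 2 stood at 316 CPM, with the nearest Flox library at 136 CPM. Cyp27a1 in LKO 1 stood at 415 CPM, with the nearest LKO library at 351 CPM. Serpina3k, whose profile was nearest to that of Cyp7b1 and was chosen for that, also stood apart in Flox 2 (9805 CPM against 6197 CPM). Nr0b2 stood at 65.6 CPM in LKO 1, the liver with the highest Cyp8b1 level, against 28.0 CPM in the nearest LKO library. Onecut1 was at 29.6 CPM in Flox 4, against 9.59 CPM, and Abcc4 at 13.9 CPM in LKO 5, against 3.13 CPM.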

How the results depend on the processing

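No enzyme passed the adjusted threshold under any of the 16 alternatives. The 9 tested enzymes turned direction in 8 of 144 values. Without Flox 2 and 3 together the log2 fold changes that turned were those of Cyp7a1 (-0.30), Cyp8b1 (-0.20), Cyp7b1 (0.17), Slc27a5 (-0.02), Nr5a2 (0.02), Hnf4a (0.08), Dbp (-0.05), Acaa1b (-0.03), Me1 (-0.05), Elovl5 (-0.04) and Serpina3k (0.17). That setting compares 3 libraries with 5. Slc27a5 also turned with library totals (-0.02) and Serpina3k with limma-voom (0.03), and the cause was not tested. When 1 library was left out at a time, direction turned for Cyp7b1 (-0.52 to 0.13), Amacr (-0.01 to 0.08), Slc27a5 (-0.02 to 0.10), Nr0b2 (-0.39 to 0.24), Fgfr4 (-0.07 to 0.13), Abcc4 (-0.04 to 1.15), Dbp (-0.01 to 1.78), C6 (-0.12 to 0.35), C8b (-0.10 to 0.20) and Serpina3k (-0.20 to 0.18). Enzymes at an unadjusted p under 0.05 numbered 0 in the fit reported, 1 with DESeq2 (Akr1d1), 1 without Flox 2 and 3 (Cyp27a1; 517 of all 16551 genes, 3.12%) and 0 to 2 with 1 library left out (575 to 1885 of all genes, 3.55% to 11.7%). The 2 were Akr1d1 and Acox2 without Flox 1 (1671 of all 16133 genes, 10.4%). Over all genes edgeR called 0 (1193 at an unadjusted p under 0.05), limma-voom 0 (1049) and DESeq2 6 (1333 of 15684 with an adjusted p), and 0 with any 1 library left out. No paired analysis was possible because the labels give the Flox and LKO libraries no shared number.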
